A study of Mus musculus with 4 samples.

Results

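The genes described here are 31 immediate early and heat shock genes, found by matching their symbols to the 27998 genes of the deposited count matrix, in which all 31 were present. They fall into 6 AP-1 genes (Fos, Fosb, Jun, Junb, Jund, Atf3), 3 Egr genes (Egr1, Egr2, Egr3), 13 other immediate early genes (Ier2, Ier3, Ier5, Btg1, Btg2, Zfp36, Zfp36l1, Nr4a1, Klf2, Klf6, Dusp1, Dusp6, Myc) and 9 heat shock genes (Hspa1a, Hspa1b, Hspa8, Hsp90aa1, Dnajb1, Hsph1, Hspb1, Hspd1, Hspe1). The study compared back skin of Ovol1 null and control mice, with or without imiquimod, an agonist of a Toll-like receptor, which as a cream induces psoriasis-like inflammation of mouse skin. Ovol1 is a zinc finger transcription factor of epithelial cells. Single cells were sorted by flow cytometry and captured with a droplet kit that tags the 3′ end of each transcript, so that a value is a number of unique molecular identifiers (UMIs), each standing for 1 captured RNA molecule. There were 4 libraries of 1 each: control untreated, control with imiquimod, Ovol1 null untreated and Ovol1 null with imiquimod. All were from the CD1 strain, the mice were 7 to 8 weeks old, and treated mice received a single dose of 62.5 mg of a 5% imiquimod cream on the shaved back. The null allele, the genotype of the controls, the number of mice behind a library, the hours between cream and harvest and the gate of the sort were not given in the sources used here.

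Immediate early genes are transcribed within minutes of a stimulus without new protein synthesis. The Fos and Jun proteins pair into the AP-1 transcription factor, which in epidermis acts in proliferation, differentiation and inflammation. Egr proteins are zinc finger factors of the same early wave, and several members (Dusp1, Zfp36, Btg2, Ier3) encode proteins that dampen the signal or its transcripts. Heat shock genes encode chaperones that fold or refold proteins and are switched on by heat shock factor when proteins misfold. Both kinds of gene are also known to respond to the handling of tissue and cells before RNA is captured; what part that had in these libraries was not tested.

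Promoter sequences are shown for 6 members because they hold the elements through which the 2 kinds of gene are known to be switched on. The RefSeq table of promoters (GRCm38.p6) had entries for 25 of the 31 members, and the 250 bases before each start site were searched on both strands. These members had 32 windows, and a member counted when any of its windows matched. The shares over the whole promoter set are of single windows, so the 2 measures are not alike. A pair of heat shock units, written GAANNTTC or with the 2 units in the reverse order, stood in the window of 6 of the 7 heat shock members with an entry (Hspa1a, Hspa1b, Hsph1, Hspb1, Hspd1, Hspe1) and of 2 of the 18 immediate early members (Jun, Egr2), against 12.8% of the 32851 windows in the table. An array of at least 3 alternating GAA and TTC units, 2 bases apart, stood in the windows of Hspd1 and Hspe1 and in 0.466% of all windows. The core of a cyclic AMP response element, TGACG, stood before 10 of the 18 immediate early members and 4 of the 7 heat shock members, against 17.8% of windows, and the full element TGACGTCA before Btg2 and Dusp1, against 1.55%. The AP-1 site TGANTCA stood before Zfp36l1 (6.75% of windows) and the CArG box, which serum response factor binds, before Egr2 and Zfp36 (1.47%). TGACGTCA contains TGACG, so these matches overlap. A match describes letters and not a bound site.

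In Fos (chr12:85473640-85473889, plus strand, the 250 bases that end at the base before the start site) and Dusp1 (chr17:26508520-26508722, minus strand, 203 bases that end 48 bases before the RefSeq start site), capitals mark TGACG on either strand; in Fos the matches begin 129 and 66 bases before the start, and in Dusp1 those of the full element begin 143 bases before it.
Fos: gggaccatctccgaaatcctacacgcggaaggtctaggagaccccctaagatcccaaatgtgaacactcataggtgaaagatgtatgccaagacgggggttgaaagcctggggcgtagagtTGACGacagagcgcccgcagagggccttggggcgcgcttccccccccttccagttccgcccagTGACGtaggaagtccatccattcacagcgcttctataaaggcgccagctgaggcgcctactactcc
Dusp1: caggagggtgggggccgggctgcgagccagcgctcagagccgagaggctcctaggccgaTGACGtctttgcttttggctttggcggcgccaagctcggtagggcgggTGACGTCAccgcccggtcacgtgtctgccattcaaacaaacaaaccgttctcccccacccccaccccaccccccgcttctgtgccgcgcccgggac
In Hspa1a (chr17:34972157-34972406, minus strand), Hspa1b (chr17:34959239-34959488, minus strand) and Hspb1 (chr5:135887669-135887918, plus strand), capitals mark pairs of heat shock units in the 250 bases before the start.
Hspa1a: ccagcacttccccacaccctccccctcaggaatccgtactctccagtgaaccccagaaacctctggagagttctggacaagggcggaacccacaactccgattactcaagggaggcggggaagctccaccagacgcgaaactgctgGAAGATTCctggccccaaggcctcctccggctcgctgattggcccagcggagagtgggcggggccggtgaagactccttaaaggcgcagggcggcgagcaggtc
Hspa1b: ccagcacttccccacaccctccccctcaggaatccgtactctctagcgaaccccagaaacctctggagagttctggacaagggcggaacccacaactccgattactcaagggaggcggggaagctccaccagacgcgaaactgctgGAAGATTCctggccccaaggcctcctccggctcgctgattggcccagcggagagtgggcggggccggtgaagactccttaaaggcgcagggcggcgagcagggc
Hspb1: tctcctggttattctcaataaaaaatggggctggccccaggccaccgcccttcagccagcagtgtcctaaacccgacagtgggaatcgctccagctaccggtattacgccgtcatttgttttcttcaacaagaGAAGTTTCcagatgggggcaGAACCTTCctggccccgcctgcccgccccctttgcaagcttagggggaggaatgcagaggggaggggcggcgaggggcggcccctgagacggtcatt
The Hspa1a and Hspa1b windows were identical at 247 of 250 bases, with the same pair of units 104 bases before the start. For these neighbouring copies the division of UMIs between them is uncertain, because the sources used here do not say how the authors' counting handled reads that fit both. Hspd1 and Hspe1 lie head to head, and the 30 bases at chr1:55088053-55088082 (plus strand, 95 to 66 bases before the Hspe1 start) hold the array, in capitals.
Hspe1: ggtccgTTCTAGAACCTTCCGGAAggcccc

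The libraries differed in ways that touch the results below. After filtering they held between 5221 and 6066 cells, and the median UMIs per cell were 5706.5, 4762.0, 5706.0 and 8394.0 in the order control untreated, control with imiquimod, labelled null untreated and labelled null with imiquimod; values given as 4 numbers follow this order throughout. Basal keratinocytes of the last library had a median of 14170 UMIs against 4562.0 to 5141.5 in the other 3 libraries. Ovol1 UMIs were not lower in the libraries labelled null (0.423, 0.380, 0.548 and 1.62 per 10000 in suprabasal keratinocytes), and 3′ tags need not report a deletion elsewhere in a gene, so those libraries are called labelled null. Of 23188 distinct barcode sequences, 267 occurred in more than 1 library. Imiquimod cells clustered largely by library: 94.1% of the control fibroblasts under imiquimod were in a single joint cluster, and in the labelled-null imiquimod library 83.7% of basal and 91.2% of suprabasal keratinocytes shared another joint cluster, which was split by clustering that library alone. S100a8 and S100a9, alarmins that neutrophils and stressed keratinocytes make, were at 96.5 and 47.6 per 10000 in basal keratinocytes of that library and at most 0.658 in the other 3. The 5 other genes of the neutrophil list summed to 0.0489 per 10000 there, with 1 of 5 at 0. With 1 library per group no difference was tested. Intervals in brackets are 95% intervals of counting error, and a gene is called higher or lower when the ratio was at least 1.5, its interval was on 1 side of 1 and at least 20 UMIs were counted over both libraries.

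Across the 8 cell classes with at least 50 cells in every library, the AP-1 and Egr genes were highest in mural cells (the smooth muscle cells and pericytes of vessels) in 3 of 4 libraries, bulge and outer root sheath keratinocytes being higher in the control imiquimod library, and lowest in upper hair follicle keratinocytes. Their summed level was 262.9, 105.8, 276.4 and 219.5 UMIs per 10000 in mural cells. It was 139.4, 72.5, 130.0 and 73.5 in fibroblasts, and 19.3, 15.2, 15.6 and 17.0 in upper follicle keratinocytes. Of the 30 members other than Egr3, 16, 6, 16 and 16 were highest in mural cells, and 17, 15, 21 and 9 were lowest in upper follicle keratinocytes. In the control imiquimod library bulge and outer root sheath keratinocytes had the most highest members, 10. Shares of all genes are not given for these counts. Among the exceptions in the control untreated library, Btg1, an antiproliferative gene abundant in lymphocytes, was highest in T or NK cells at 27.8 per 10000. Dusp1, the phosphatase that switches off MAP kinases, was highest in fibroblasts at 32.2, and Egr2 in upper follicle keratinocytes at 0.967. Heat shock genes spread less between classes. Their sum ran from 29.8 per 10000 in fibroblasts to 89.6 in mural cells in the same library, and Hspb1, the small heat shock protein HSP27, from 0.620 in fibroblasts to 19.9 in mural cells. Markers of mural cells in fibroblasts summed to between 1.24 and 1.79 per 10000 over the 4 libraries.

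**Figure D1:**
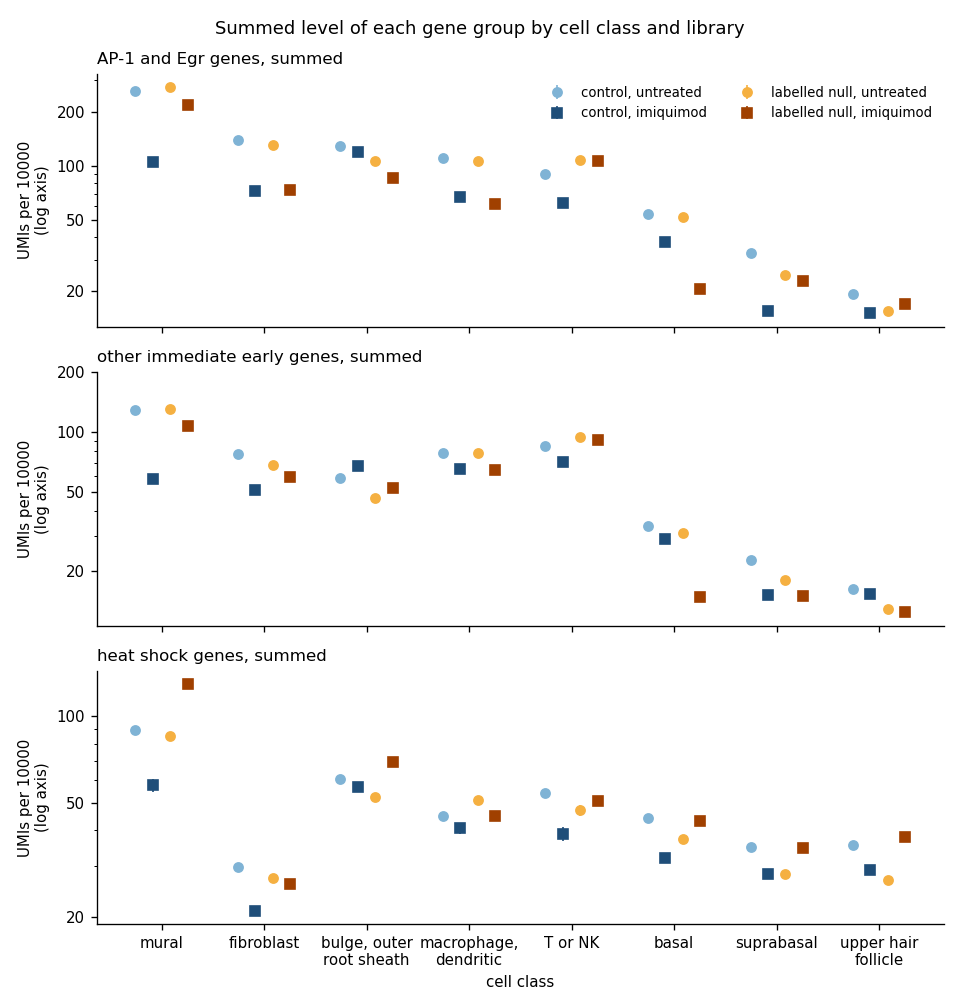
Summed UMIs per 10000 UMIs (log axis) of the AP-1 and Egr genes, the other immediate early genes and the heat shock genes in 8 cell classes; each point is 1 library, with its 95% counting interval, mostly smaller than the point. Fibroblasts under imiquimod (72.5 and 73.5 for AP-1 and Egr) lie below untreated ones (139.4 and 130.0), and the heat shock sum of mural cells under imiquimod is 57.4 in the control and 129.1 in the labelled-null library.

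In fibroblasts the AP-1 and Egr genes were lower under imiquimod in the control and in the labelled-null libraries. Their sum was 1.92-fold lower (1.91 to 1.94) in the control and 1.77-fold lower (1.76 to 1.78) in the labelled null, and both treated libraries were below both untreated ones. With TMM factors the log2 ratios were -0.98 and -0.59. In the control pair, 18 of the 30 measured members were lower and 0 higher, where 17.0% of all genes were lower and 17.6% higher. The median log2 ratio of the members was -0.80, against 0.01 over all genes. In the labelled-null pair 8 members were lower and 3 higher, against 28.2% and 9.4% of all genes, with a member median of -0.26 and an all-gene median of -0.24. The labelled-null count of lower members is thus near the share of all genes, while 5 of those 8 are AP-1 genes, of which 6 were measured. Every one of these 29 calls was the same under each of 7 other settings tried. Equal weights per cell and naming clusters by the type with most markers were run for ratios of sums and were not among these 7. That naming left 1959 fibroblasts in the labelled-null imiquimod library instead of 3147. The largest fibroblast cluster of the control imiquimod library, of 2219 cells, had an AP-1 and Egr level of 72.1, near that of the class.

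Among the AP-1 genes, Fos, the partner that needs a Jun protein to bind DNA, was at 45.6, 23.2, 42.6 and 21.5 UMIs per 10000, 1.96-fold lower (1.93 to 1.99) in the control and 1.98-fold lower (1.96 to 2.0) in the labelled null. Jun was at 26.1, 13.8, 24.7 and 13.5, and Jund, the least inducible Jun gene, at 20.1, 11.7, 20.6 and 11.6. For these 3 genes the 2 treated libraries were close to each other, as were the 2 untreated ones. Fosb was at 10.2, 3.98, 9.38 and 4.45. Junb moved less and was not called, at 19.9, 13.6, 18.0 and 13.7, 1.46-fold and 1.31-fold lower. Atf3, a stress-induced repressor of inflammatory genes, had the largest ratio of the group: it was at 6.91, 1.34, 5.59 and 2.34, 5.17-fold lower (4.89 to 5.46) in the control and 2.39-fold lower (2.31 to 2.47) in the labelled null. Under imiquimod it was 1.75-fold higher (1.65 to 1.85) in the labelled-null than in the control library.

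Egr1, a growth factor-induced activator, was at 10.5, 4.84, 9.04 and 6.37 per 10000 in fibroblasts, called lower in the control pair (2.17-fold) and not in the labelled-null pair (1.42-fold). Egr2 was rare, with 125, 43, 64 and 224 UMIs in all, and was 1.68-fold higher (1.26 to 2.25) under imiquimod in the labelled null. The Egr sum was 2.16-fold lower (2.1 to 2.23) in the control and 1.41-fold lower (1.37 to 1.44) in the labelled null.

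Of the 13 other immediate early genes, 7 were lower in control fibroblasts under imiquimod and 1, Btg2, in the labelled null. Among all genes 17.0% and 28.2% were lower, so the labelled-null count is below the share of all genes. Dusp1 was at 32.2, 17.8, 28.4 and 19.0 per 10000, 1.80-fold and 1.49-fold lower, just inside and just outside the 1.5-fold rule. Zfp36, which encodes a protein that speeds the decay of cytokine transcripts, was at 11.8, 6.08, 9.89 and 6.67, and Ier2 at 9.45, 6.64, 8.59 and 7.17. Zfp36 was 1.94-fold lower in the control pair and 1.48-fold lower, not called, in the labelled null. Ier3 stood apart: this survival gene, a target of NF-κB, was at 1.57, 1.58, 1.39 and 7.13, between 1.39 and 1.58 in the first 3 libraries and 5.15-fold higher (4.90 to 5.41) under imiquimod in the labelled null. Zfp36l1, a relative of Zfp36, was at 3.88, 5.41, 3.25 and 6.18 and called higher in the labelled null at 1.91-fold (1.84 to 1.97). T or NK cell markers in fibroblasts moved with treatment too, at 7.15, 20.8, 6.55 and 36.8 per 10000 for the 8 listed genes. That list includes Thy1 and the sum was not split by gene, so it is not a measure of T or NK cells alone. The 18 macrophage or dendritic cell markers were at 1.33, 0.858, 1.19 and 0.663. The part of either list in these values was not tested.

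**Figure D2:**
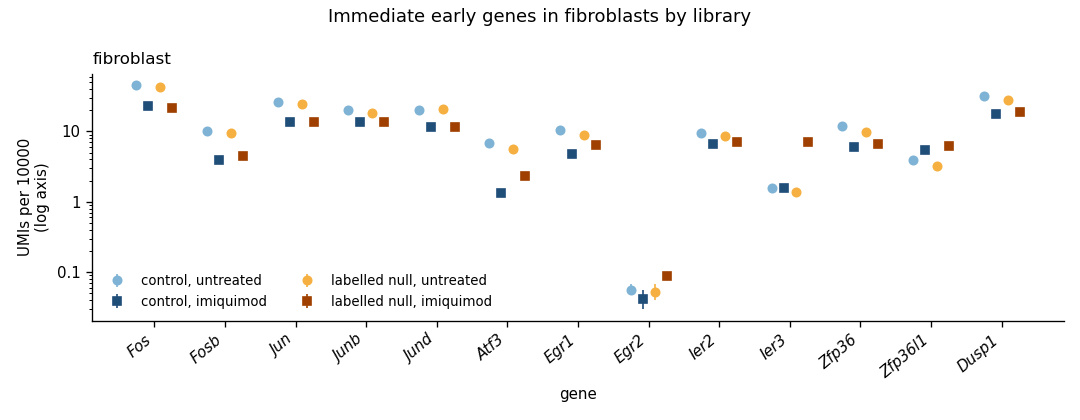
UMIs per 10000 (log axis) of 13 immediate early genes in fibroblasts, 1 point per library with its 95% counting interval. Treated libraries (squares) lie below untreated ones (circles) for Fos, Fosb, Jun, Jund, Atf3 and Dusp1, while Ier3 is at 7.13 in the labelled-null imiquimod library and at 1.39 to 1.58 in the other 3.

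Heat shock genes in fibroblasts were lower under imiquimod in the control pair for 5 of 9 members and in the labelled-null pair for 2 of 9. The shares of all genes were 17.0% and 28.2%, so the labelled-null count is near that of all genes. Hspa1a, the inducible HSP70, was at 7.27, 3.83, 6.31 and 5.51 per 10000, 1.90-fold lower (1.83 to 1.96) in the control and 1.15-fold lower in the labelled null. Hspa8, the constitutive HSP70, was nearly level at 13.3, 11.2, 12.2 and 12.0. Dnajb1, the HSP40 partner of HSP70, was lower in both pairs, by 2.69-fold and 2.04-fold, from 1.03 and 1.0 untreated. Hsp90aa1, the inducible HSP90, was at 2.17, 1.23, 1.91 and 2.54 and was 2.06-fold higher (1.94 to 2.19) in the labelled-null than in the control imiquimod library. With TMM scaling, which shifts the labelled-null ratio by 0.24 on the log2 scale, the log2 ratio of the heat shock sum in that pair turned from -0.06 to 0.17.

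In suprabasal keratinocytes the AP-1 and Egr sum was 32.7, 15.5, 24.7 and 22.8 UMIs per 10000, 2.11-fold lower (2.05 to 2.16) under imiquimod in the control and 1.08-fold lower (1.06 to 1.11) in the labelled null. The control imiquimod library had the lowest value. In the control pair 16 of 30 members were lower and 1 higher, where 10.9% of all genes were lower and 7.74% higher. In the labelled-null pair 4 were lower and 9 higher, against 28.1% and 16.9% of all genes. With TMM factors the splits were 3 higher and 14 lower in the control pair and 12 and 3 in the labelled-null pair. The shares of all genes above were taken without TMM factors and do not apply to these splits. The direction of the AP-1 and Egr sum in the labelled-null pair turned with those factors, to 0.06 on the log2 scale. The member medians were -0.69 and 0.17 on the log2 scale, and those of all genes -0.14 and -0.18. The AP-1 part of this depended on which cells were called suprabasal: when the members could be among the variable genes, the class held 484, 814, 833 and 285 cells, the sum was 13.4, 11.5, 13.6 and 27.4, and of the 16 lower calls 3 held under each of 7 other settings (Fosb, Hsp90aa1, Hsph1).

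Fos was at 8.52, 3.67, 7.19 and 4.28 per 10000 in suprabasal cells, lower in both pairs (2.32-fold and 1.68-fold). Jun was at 6.48, 3.20, 5.01 and 6.60, 2.02-fold lower (1.91 to 2.15) in the control and 1.32-fold higher in the labelled null. Junb, which restrains epidermal inflammation, was at 5.78, 3.1, 4.19 and 4.0. Atf3 again had the largest AP-1 ratio, at 4.54, 1.20, 2.25 and 3.08, 3.78-fold lower (3.47 to 4.12) in the control and 1.37-fold higher in the labelled null. For Jun and Atf3 the control imiquimod library was the lowest of the 4.

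Among the other immediate early genes of suprabasal cells, Nr4a1, an orphan nuclear receptor, was at 0.486, 0.144, 0.310 and 0.261 per 10000, 3.38-fold lower (2.62 to 4.39) in the control. Btg1 was level in the control and lower in the labelled null, at 5.46, 5.46, 4.73 and 2.30. Ier3 was higher in the labelled null as in fibroblasts, at 0.133, 0.188, 0.137 and 0.541, 3.95-fold (3.14 to 5.02). Low counts carried the next 2 genes. Dusp6, a phosphatase of ERK and a readout of its activity, had 11, 60, 27 and 86 UMIs and was higher in both pairs, at 3.07-fold (1.60 to 6.48) and 2.72-fold (1.74 to 4.35). Egr2 had 14, 19, 19 and 82 UMIs and was 3.68-fold higher (2.21 to 6.42) in the labelled null. Suprabasal cells of the labelled-null imiquimod library also carried the most basal markers, 202.8 per 10000 for the 8 listed genes against 102.2 to 108.8 in the other libraries, and the part of that in these values was not tested.

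**Figure D3:**
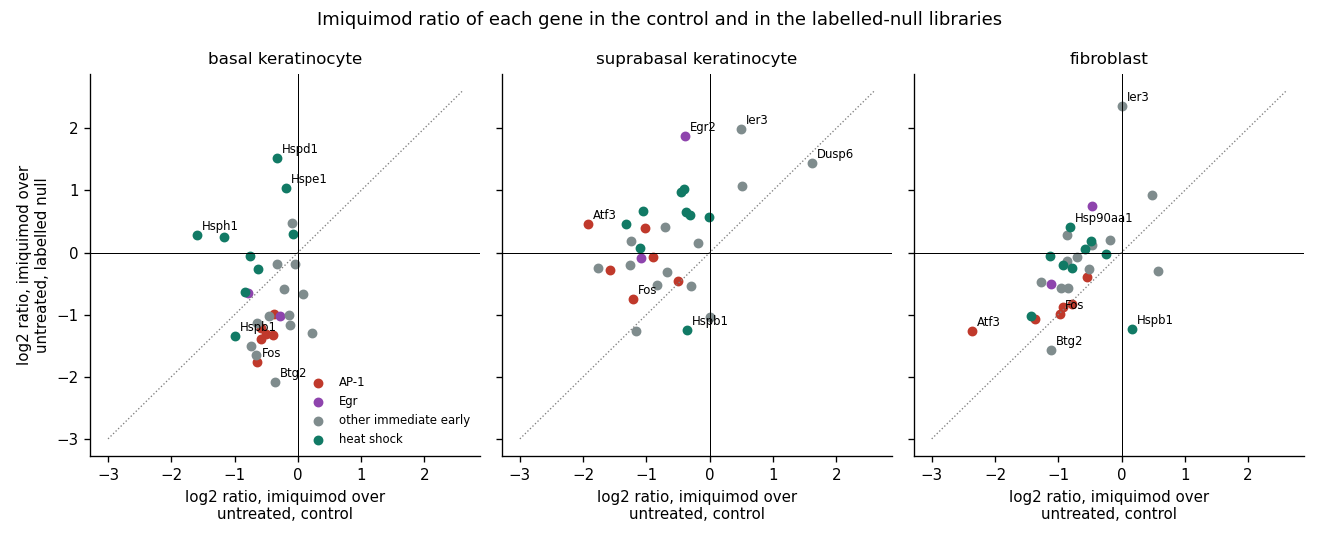
Log2 ratio of imiquimod over untreated for each measured member in the control libraries (x axis) and in the labelled-null libraries (y axis), in 3 cell classes, coloured by gene group; the dotted line marks equal ratios. In suprabasal keratinocytes 8 of 9 heat shock genes lie below 0 in the control and above 0 in the labelled null, and in fibroblasts 7 of 8 AP-1 and Egr genes lie below 0 in both.

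In basal keratinocytes AP-1 and Egr genes were lower under imiquimod in both pairs. Their sum was 53.8, 37.8, 51.7 and 20.7 UMIs per 10000, 1.42-fold lower (1.40 to 1.45) in the control and 2.50-fold lower (2.46 to 2.54) in the labelled null. In the control pair 13 of 30 members were lower and 0 higher, where 14.2% of all genes were lower and 6.91% higher, with medians of -0.43 for the members and -0.19 for all genes. In the labelled-null pair 20 were lower and 2 higher, against 29.3% and 17.3% of all genes, with medians of -1.00 and -0.17. With TMM factors, which shift these 2 comparisons by 0.20 and 0.22 on the log2 scale, the lower calls in the control pair dropped to 5, and in the labelled-null pair to 16. The shares of all genes above were taken without those factors.

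Which of the pairs had the larger basal difference depended on the class boundary. With each library clustered on its own, the AP-1 and Egr sum of basal cells was 44.1, 19.5, 42.5 and 25.1, so that the treated library with the lower value was then the control. The lower calls were 21 in the control pair and 12 in the labelled-null pair, with no share of all genes under that clustering to set beside them. Where clusters of mostly 1 library kept their joint name, the labelled-null imiquimod library had 131 basal cells instead of 804, with a sum of 35.7. Both settings left the treated libraries below the untreated ones. Between the imiquimod libraries the direction turned, from 1.83-fold lower in the labelled null to log2 ratios of 0.36 and 0.02.

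Fos was at 14.7, 9.34, 14.8 and 4.37 per 10000 in basal cells, 1.57-fold (1.52 to 1.63) and 3.39-fold (3.28 to 3.50) lower. Jun was at 11.4, 8.78, 10.7 and 5.39, Junb at 8.97, 6.31, 7.80 and 3.14, and Jund at 5.87, 4.46, 6.81 and 2.72. Atf3 was at 7.91, 5.25, 7.21 and 3.12. Each of these 5 genes had its lowest value in the labelled-null imiquimod library, and the untreated libraries differed by at most 1.16-fold. In the control pair Jun, Junb and Jund did not pass the 1.5-fold rule.

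Btg2, an antiproliferative gene and p53 target, had the largest ratio among immediate early genes in basal cells, at 4.10, 3.17, 3.54 and 0.838 per 10000, 4.22-fold lower (3.93 to 4.54) under imiquimod in the labelled null. Its relative Btg1 was at 4.67, 5.46, 4.26 and 1.74, and 3.13-fold lower (2.98 to 3.30) in the labelled-null than in the control imiquimod library. That Btg1 difference was the 1 lower call of 18 between the imiquimod libraries that was made under each of the 7 other settings. Klf2, a factor of quiescent cells, was at 1.25, 0.790, 0.907 and 0.289. Dusp1 was at 5.87, 5.40, 6.50 and 2.90. These 4 genes were lowest in the labelled-null imiquimod library, whose basal class also had the most suprabasal markers (9.31, 24.1, 15.7 and 62.3 per 10000 for the 9 listed genes). Fibroblast markers in basal cells were lower under imiquimod in both pairs, at 18.1, 11.4, 22.9 and 6.56 per 10000 for the 8 listed genes. The part of either mixture in the basal values of the members was not tested.

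The summed heat shock genes of keratinocytes had opposite directions in the 2 pairs, while single members were mixed. In basal cells 6 of 9 members were called lower in the control pair, against 14.2% of all genes. In the labelled-null pair 2 were higher (Hspd1, Hspe1) and 2 lower (Dnajb1, Hspb1). There 17.3% of all genes were higher and 29.3% lower, so these 2 counts are near the shares of all genes. In suprabasal cells 3 of 9 were called lower in the control pair, against 10.9% of all genes. The labelled-null pair had 5 higher and 1 lower, Hspb1, against 16.9% and 28.1% of all genes. The sum in basal cells was 44.2, 32.2, 37.4 and 43.3 UMIs per 10000, 1.37-fold lower (1.35 to 1.40) under imiquimod in the control and 1.16-fold higher (1.14 to 1.17) in the labelled null. In suprabasal cells it was 34.9, 28.2, 28.3 and 34.7, 1.24-fold lower (1.21 to 1.27) and 1.23-fold higher (1.20 to 1.25). Upper follicle keratinocytes had the same directions, at 35.6, 29.1, 27.0 and 37.9. The direction in each pair was the same under every setting that could be run for basal and suprabasal cells. The ratios of the sums are modest because members differed. Part of the contrast between the pairs lies in the untreated libraries. Their heat shock sum was lower in the labelled null than in the control, 1.18-fold in basal, 1.23-fold in suprabasal and 1.32-fold in upper follicle keratinocytes.

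The mitochondrial chaperonin pair Hspd1 (HSP60) and Hspe1 (HSP10), which share the promoter shown above, was highest in the labelled-null imiquimod library. In basal cells Hspd1 was at 1.33, 1.05, 1.10 and 3.17 per 10000, 2.88-fold higher (2.66 to 3.13) in the labelled-null pair. Hspe1 was at 4.97, 4.36, 4.44 and 9.13, 2.06-fold higher (1.97 to 2.14). In suprabasal cells Hspd1 was at 1.24, 0.909, 1.02 and 2.02 and Hspe1 at 4.02, 3.11, 3.38 and 5.34. The 4 calls of higher in that pair, for both genes in both classes, were made under each of the 7 other settings. In fibroblasts of the labelled-null pair neither gene was called, with Hspd1 at 1.04-fold (0.958 to 1.13) and Hspe1 slightly higher at 1.13-fold (1.09 to 1.18). TMM factors shift that comparison up by 0.24 on the log2 scale.

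Hsp90aa1 and Hsph1 had their lowest values in basal and suprabasal cells in the control imiquimod library. Hsp90aa1 in basal cells was at 5.21, 2.33, 4.71 and 5.60 per 10000, 2.24-fold lower (2.1 to 2.38) in the control and 1.19-fold higher in the labelled null. In suprabasal cells it was at 2.1, 1.01, 1.99 and 3.17, 2.08-fold lower (1.87 to 2.31) and 1.59-fold higher (1.49 to 1.70). Between the imiquimod libraries it was thus 2.40-fold and 3.13-fold higher in the labelled null. Hsph1, the HSP110 exchange factor of HSP70, had the same shape at low level, with basal values of 0.359, 0.118, 0.308 and 0.373, 3.03-fold lower (2.34 to 3.94) in the control. Its suprabasal values were 0.388, 0.156, 0.251 and 0.346. The lower calls of both genes in the control pair were made under each other setting in both classes.

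The HSP70 genes were less uniform. Hspa1a was at 4.12, 2.67, 4.22 and 3.51 in basal cells, called lower in the control alone at 1.54-fold (1.45 to 1.64). In suprabasal cells it was at 1.95, 1.47, 2.0 and 4.04, 2.02-fold higher (1.89 to 2.16) in the labelled-null pair. Hspa1b, its near copy, had the same order in suprabasal cells at 0.578, 0.467, 0.660 and 0.998. Hspa8 changed little in basal cells, at 16.5, 15.6, 14.0 and 17.2. In suprabasal cells it was at 11.3, 11.3, 9.41 and 14.0, level in the control pair. In the labelled-null pair it was higher there, just short of the 1.5-fold rule, and TMM factors shift that comparison up by 0.18 on the log2 scale. Hspa8 had no call in either class. Dnajb1 was lower under imiquimod in basal cells of both pairs, at 2.30, 1.29, 1.88 and 1.22.

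Hspb1 was called lower in the labelled-null pair in all 3 classes. It was at 8.84, 4.42, 6.21 and 2.45 per 10000 in basal cells, 2.0-fold lower (1.91 to 2.09) in the control and 2.53-fold lower (2.42 to 2.65) in the labelled null. In suprabasal cells it was at 11.4, 8.94, 8.29 and 3.47, 1.28-fold and 2.39-fold lower. In fibroblasts Hspb1 was low, at 0.620, 0.692, 0.963 and 0.408, and 2.36-fold lower (2.17 to 2.57) in the labelled-null pair. The 8 basal keratinocyte markers in fibroblasts were at 2.72, 10.3, 9.84 and 3.74 per 10000. They fell with Hspb1 in the labelled-null pair, while in the control pair they rose and Hspb1 was nearly level. Their part was not tested.

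**Figure D4:**
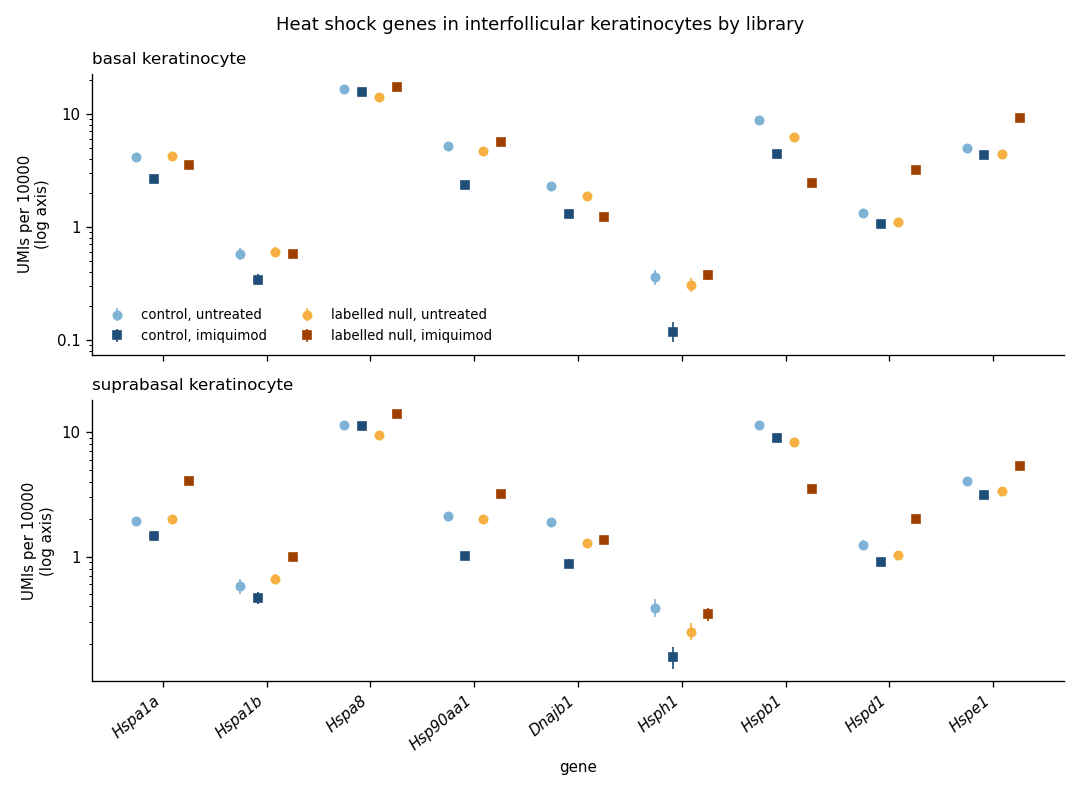
UMIs per 10000 (log axis) of the 9 heat shock genes in basal and suprabasal keratinocytes, 1 point per library with its 95% counting interval. Hspd1 and Hspe1 are highest in the labelled-null imiquimod library (3.17 and 9.13 in basal cells), Hsp90aa1 and Hsph1 are lowest in the control imiquimod library, and Hspb1 is lowest in the labelled-null imiquimod library (2.45 in basal cells).

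Without treatment few members were called between the labelled-null and control libraries, while some sums differed. In suprabasal cells of the labelled null the AP-1 and Egr sum was 1.32-fold lower and the heat shock sum 1.23-fold lower. The same sums were 1.04-fold and 1.18-fold lower in basal cells and 1.07-fold and 1.09-fold lower in fibroblasts. In basal cells 0 of 30 were higher and 1 lower, where 3.63% of all genes were higher and 2.59% lower. The 1 was Egr2, at 0.499 in the control and 0.270 per 10000 in the labelled null, 1.85-fold lower (1.51 to 2.27). In suprabasal cells 0 were higher and 4 lower, against 4.03% and 2.59% of all genes. These were Atf3 (2.02-fold), Btg2 (1.93-fold), Nr4a1 (1.57-fold) and Hsph1 (1.55-fold). None of these 5 calls was made under all 7 other settings. In fibroblasts 1 was higher, Hspb1 at 1.55-fold (1.43 to 1.68), and 0 lower, against 7.28% and 2.47%. The Hspb1 call was made under each other setting, and keratinocyte markers in fibroblasts moved with it, the 8 basal ones at 2.72 and 9.84 per 10000 in the control and labelled-null untreated libraries; their part was not tested.

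Under imiquimod the labelled-null library had more heat shock UMIs than the control library in each of the 3 classes, while immediate early genes differed by class. In suprabasal cells 17 of 30 members were higher and 2 lower, where 17.2% of all genes were higher and 21.4% lower, with a member median of 0.68 on the log2 scale and an all-gene median of -0.06. Of the 17, 9 were called under each other setting: Jun, Atf3, Ier3 and the heat shock genes Hspa1a, Hspa1b, Hsp90aa1, Hsph1, Hspd1 and Hspe1. In basal cells 6 were higher and 18 lower, against 21.6% and 22.6%. The lower ones were 17 immediate early genes and Hspb1. With each library clustered on its own 1 of the 18, Btg1, was called lower, and with joint names kept 4 were. Of the 6 higher ones 5 (Hspa1b, Hsp90aa1, Hsph1, Hspd1, Hspe1) were called under each other setting. In fibroblasts 6 were higher and 3 lower, against 9.85% and 25.3%. Those 6 were Atf3, Egr2, Ier3, Dusp6, Hsp90aa1 and Hsph1. TMM factors shift this comparison by 0.25 on the log2 scale for every gene, and the split was then 16 higher and 1 lower. The shares of all genes were taken without TMM factors, so that split is not read as a result about the members. The 4 comparisons share libraries in pairs, so their counts are not independent of each other. Depth moved with this contrast, since keratinocytes of the labelled-null imiquimod library were the deepest; with only cells of at least 4000 UMIs the heat shock sums of basal cells were 48.7, 33.9, 39.2 and 43.4.

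In basal keratinocytes most AP-1 and Egr UMIs sat in few cells. Over single basal cells the share per 10000 had medians of 9.56, 7.58, 12.2 and 5.65 and 90th percentiles of 117.9, 60.9, 92.1 and 49.9. The 10% of basal cells with the highest share held 73.1%, 78.3%, 71.4% and 58.7% of the AP-1 and Egr UMIs and 14.2% to 16.6% of all UMIs. In suprabasal cells the top 10% held 66.0%, 58.6%, 57.2% and 41.3%. Basal heat shock UMIs were more even, with 29.9% to 38.2% in the top 10%. In fibroblasts the AP-1 and Egr UMIs were spread widely, with medians of 123.6, 53.2, 111.8 and 62.7 per 10000 and 20.0% to 28.5% in the top 10%. The median cell was lower under imiquimod in both pairs in fibroblasts and in basal cells, while the basal sum is set mostly by the upper tail. With each cell thinned to 1000 UMIs, the median was 12, 5, 11 and 6 UMIs in fibroblasts. It was 1 in basal cells of every library, too few to compare.

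**Figure D5:**
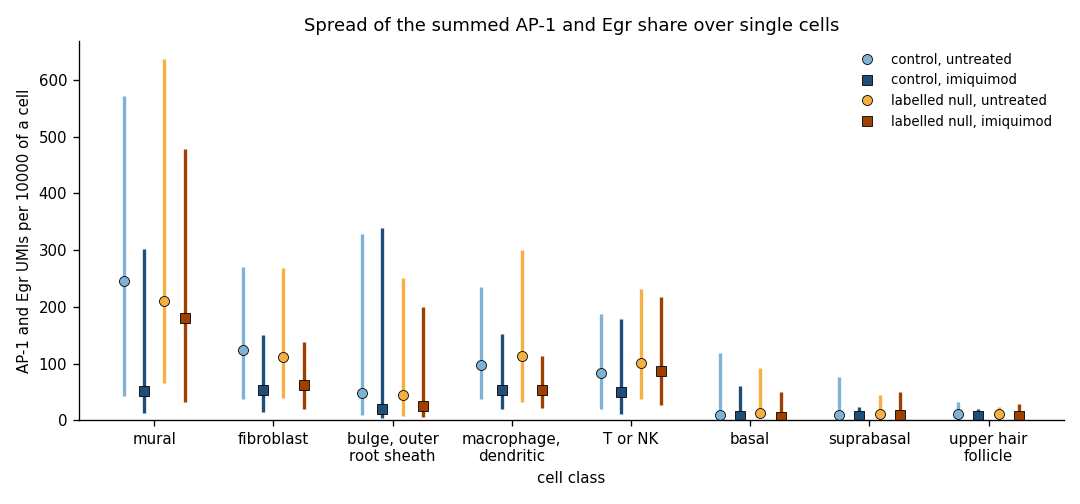
AP-1 and Egr UMIs per 10000 UMIs of a cell, on a linear axis, in 8 cell classes; symbols are medians over cells and bars run from the 10th to the 90th percentile in each library. Medians of basal cells lie between 5.65 and 12.2 with long upper bars, and those of fibroblasts lie at 123.6 and 111.8 untreated and at 53.2 and 62.7 under imiquimod.

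The clusters, formed without the members, separated cells by their AP-1 level all the same. The basal cluster with the highest AP-1 and Egr level in any library was small. It was at 276.1, 201.5 and 318.5 per 10000 in its 29, 66 and 27 cells of the first 3 libraries, and held 2 cells of the labelled-null imiquimod library. Its heat shock levels, 102.2, 70.1 and 94.8, were also above those of the class. Without that cluster the basal AP-1 and Egr sum was 39.3, 22.5, 40.5 and 20.4, and the heat shock sum was 40.4, 28.6, 35.1 and 43.2. Because the cluster was picked by its AP-1 and Egr level, the lower sums in the first 3 libraries follow from that choice. They do not show how the treated libraries compare. In the basal cluster that all 4 libraries filled, with 283, 382, 336 and 107 cells, the AP-1 and Egr level was 31.5, 19.6, 34.1 and 24.1 and the heat shock level 39.4, 32.5, 35.4 and 46.0. Untreated fibroblasts fell into clusters of unlike level, the largest at 96.5 in the control and 96.1 in the labelled null, and another at 188.8 and 194.6. The 2 untreated libraries gave nearly the same level in each of these fibroblast clusters.

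In mural cells the untreated libraries were alike and the imiquimod libraries were not. Fos was at 74.7, 32.0, 89.6 and 59.4 per 10000, Junb at 67.4, 28.9, 62.2 and 56.8, and Atf3 at 29.9, 5.18, 25.7 and 15.9. The AP-1 and Egr sum was 2.49-fold lower (2.38 to 2.6) under imiquimod in the control and 1.26-fold lower (1.23 to 1.29) in the labelled null. Hspa1a was at 31.9, 14.0, 32.1 and 50.9, and Dnajb1 at 2.22, 2.61, 2.90 and 11.1. These rest on 106, 67, 84 and 231 cells. In the control imiquimod library the median mural cell was at 52.0 for AP-1 and Egr, against 245.9, 209.4 and 180.7 in the other 3 libraries.

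Among immune cells, T or NK cells carried high Junb, at 48.8, 26.9, 51.5 and 63.4 per 10000, the control imiquimod library being lowest. Nr4a1, which follows antigen receptor signalling in T cells, was at 8.57, 5.39, 8.18 and 12.3. Klf2, which keeps naive T cells recirculating, was at 3.13, 4.06, 3.77 and 0.691, low in the labelled-null imiquimod library alone. In macrophages or dendritic cells the AP-1 and Egr sum was 111.0, 67.5, 105.9 and 61.1, lower in both imiquimod libraries as in fibroblasts. Their heat shock sum was 45.1, 40.7, 51.3 and 44.9. These classes held 65 to 292 cells per library.

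In the hair follicle, bulge and outer root sheath keratinocytes had AP-1 and Egr sums of 129.0, 118.8, 106.2 and 85.9 per 10000, above the other keratinocytes in every library. Btg2 was at 7.49, 13.4, 6.79 and 5.57 there, highest in the control imiquimod library. Upper follicle keratinocytes were the class with the lowest Fos in every library, at 4.71, 3.51, 4.17 and 3.54. Their Hspa1a was at 2.28, 1.24, 1.66 and 3.66, and Hsp90aa1 at 2.0, 0.885, 1.65 and 2.96, both lowest in the control and highest in the labelled-null imiquimod library.

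Related genes that are not members gave a wider view, from lists of 40 further immediate early genes, 39 of them in the matrix, and 43 further heat shock and chaperone genes. In fibroblasts of the control pair 17 of 37 measured immediate early genes were lower and 4 higher under imiquimod, where 17.0% and 17.6% of all genes were. In the labelled null 10 of 38 were lower and 11 higher, against 28.2% and 9.4%, so the lower count is near the share of all genes. Gadd45g, a stress gene that slows the cell cycle, was at 21.6 and 8.80 per 10000 in the control pair, 2.45-fold lower. In suprabasal cells of the labelled-null pair 15 of 36 were higher and 3 lower, against 16.9% and 28.1% of all genes. Among the higher ones was Nfkbia, the inhibitor that NF-κB induces, at 2.93-fold (2.77 to 3.11). Of the chaperone list, 14 of 43 were higher and 6 lower in basal cells of the labelled-null pair, against 17.3% and 29.3% of all genes. In the control pair 0 were higher and 13 lower, against 6.91% and 14.2%. Hspa9, the mitochondrial HSP70, was 3.25-fold higher (2.98 to 3.55) in the labelled null, from 0.892 to 2.90 per 10000, like Hspd1 and Hspe1 of the same compartment. Cct3, a subunit of the cytosolic chaperonin, was 2.76-fold higher (2.51 to 3.05). Serpinh1, the collagen chaperone HSP47, was lower in both basal pairs (2.84-fold and 3.13-fold) and 7.28-fold lower (7.05 to 7.51) in control fibroblasts, at 29.2 and 4.01. Fibroblast markers in basal cells were also lower in both pairs, and their part in the basal Serpinh1 values was not tested.

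Over the 32 sums of 8 classes in 4 libraries, the AP-1 and Egr sum and the sum of the other immediate early genes varied together (Pearson correlation 0.956 of log2 levels), and the heat shock sum followed less closely (0.647). The points share libraries and depth, so these are descriptions. Fosb, Jund and Fos were closest to the rest of the AP-1 and Egr genes, at 0.937, 0.936 and 0.934, and Egr2 was not related to them (-0.229). Within the heat shock group Dnajb1 followed the rest (0.808), and Hspb1 and Hspe1 did not (0.022 and -0.097). The 5 genes outside the members with a pattern most like the AP-1 and Egr sum were Rsu1 (0.921), Crip1 (0.920), Ccnl1 (0.912), Morf4l1 (0.902) and Ppp1r15a (0.885). Those most like the heat shock sum were Isyna1 (0.848), Hnrnpk (0.838), Cdc42ep3 (0.826), Sncg (0.826) and Ywhaq (0.825).

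The remaining members were at low levels. Egr3 had at most 4 UMIs in any library of the 3 main classes and was not measured. Myc, the growth regulator, lay between 0.168 and 0.621 per 10000 in these classes and was called in basal cells of the labelled-null imiquimod library, 1.59-fold lower than untreated and 1.77-fold lower than the control. Ier5 was at 1.26, 0.520, 1.02 and 0.734 in fibroblasts, 2.43-fold lower in the control pair, and at 0.157, 0.223, 0.196 and 0.412 in suprabasal cells, 2.1-fold higher in the labelled-null pair. Both Ier5 calls were made under each of the 7 other settings. Klf6, a zinc finger factor of injury, lay between 1.12 and 3.27. Klf6 was 1.81-fold higher (1.65 to 1.98) in labelled-null than in control suprabasal cells under imiquimod.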

How the data were processed

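The authors deposited 1 matrix of raw UMI counts for 4 libraries, combined by aggr per the labels; Cell Ranger 2.1.0 and mm10 come from the submitters' processing notes. Whether depth was equalised in that step, and the annotation release, are not given in the sources used here. The deposited barcodes carry a library suffix that the labels tie to each sample. The members and the related and marker lists were chosen with earlier results of these data known.

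Cells were required to have 200 genes or more and mitochondrial UMIs of 10% or less, and Scrublet removed 1.34% to 1.94% of them as doublets. Its automatic threshold marked 0.11% in 1 library, so a common score threshold of 0.264 was used, a departure from the design. Between 29706014 and 55208532 UMIs remained per library. Cells were clustered with scanpy 1.11.5 (2000 variable genes without the members, 30 principal components, 15 neighbours, Leiden resolution 1). Clusters were named from at least 3 listed markers. The naming rule was the last of 3 looked at after seeing the clusters and before the members' levels. Clusters with over 80% of cells from 1 library, or with no name, took names from the clustering of that library alone.

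Levels are sums of UMIs over the cells of a class in a library, per 10000 UMIs, not scaled by gene length. Intervals are exact (Poisson for levels, conditional binomial for ratios; scipy 1.17.1), 95%, and cover counting error only. TMM factors were from edgeR 4.0.16. The scripts were tested on simulated data. Fewer cells expressing a gene and less RNA per cell are both contained in a sum. Members at 5 per 10000 or more, or changed at least 3-fold, were to be given in full. That rule was followed in basal and suprabasal keratinocytes and fibroblasts, and members of the other 5 classes were selected after their values were seen. Alternatives were TMM factors, other cell and class definitions, equal weights per cell and no minimum of UMIs. No batch was given in the labels.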

Additional observations from a re-analysis of the deposited data

Results flagged for a closer look

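These results were lower under imiquimod in the control libraries and higher in the labelled-null libraries. A summed group is listed where the counting intervals of its 2 ratios lay on opposite sides of 1, and a single gene only where it was called, at 1.5-fold or more, in both pairs. A gene with a large ratio in 1 pair and no call in the other, such as Atf3 in suprabasal keratinocytes, is therefore not listed. With 1 library per group the difference between the pairs was not tested, and the values are differences of log2 ratios, labelled null minus control. For the sum of the heat shock genes the difference was 0.58 in T or NK cells (-0.47 in the control and 0.11 in the labelled null), 0.67 in basal keratinocytes (-0.46 in the control and 0.21 in the labelled null), 0.49 in bulge and outer root sheath keratinocytes (-0.09 in the control and 0.40 in the labelled null), 1.24 in mural cells (-0.64 in the control and 0.60 in the labelled null), 0.60 in suprabasal keratinocytes (-0.31 in the control and 0.30 in the labelled null) and 0.78 in upper hair follicle keratinocytes (-0.29 in the control and 0.49 in the labelled null). For Nr4a1 the difference was 1.26 in T or NK cells (-0.67 in the control and 0.59 in the labelled null). For Hspa1a the difference was 1.85 in mural cells (-1.19 in the control and 0.66 in the labelled null) and 2.02 in upper hair follicle keratinocytes (-0.88 in the control and 1.14 in the labelled null). For Hsp90aa1 the difference was 1.73 in suprabasal keratinocytes (-1.06 in the control and 0.67 in the labelled null) and 2.02 in upper hair follicle keratinocytes (-1.18 in the control and 0.84 in the labelled null). For the sum of the AP-1 and Egr genes the difference was 0.46 in upper hair follicle keratinocytes (-0.35 in the control and 0.12 in the labelled null). For Hspa1b the difference was 1.42 in upper hair follicle keratinocytes (-0.84 in the control and 0.59 in the labelled null). The heat shock sum accounts for 6 of the 13 values, in every class compared except fibroblasts and macrophages or dendritic cells. Of the single genes, Hspa1a and Hsp90aa1 each appear in 2 classes.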

How the results depend on the processing

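No paired analysis was possible because each group was 1 library, and no replicate could be left out. The alternatives were applied to the 24 log2 ratios of the AP-1 and Egr and heat shock sums, and some of them to the 24 counts of members called, in basal and suprabasal keratinocytes and fibroblasts. A ratio is listed below where it left its counting interval, which at these depths is narrow, and a count where it changed by more than 1.5 times. Shares of all genes are given for the report's setting only, so the changed counts have none beside them. In every setting run, the AP-1 and Egr sum was lower under imiquimod in the control pair in all 3 classes. The heat shock sum was lower under imiquimod in the control pair and higher in the labelled-null pair in basal and suprabasal cells in every setting run. Directions that turned were those of AP-1 and Egr in basal cells between the imiquimod libraries (-0.87 in the report's setting), in suprabasal cells of the labelled-null pair (-0.12) and the untreated pair (-0.40), in fibroblasts between the imiquimod libraries (0.02), and of heat shock in fibroblasts of the labelled-null pair (-0.06); the cause was not tested. Without a minimum of UMIs, 24 of 24 counts stayed within 1.5 times. Thinning cells to 1000 UMIs changed 36 of 36 shares of cells with a UMI of the genes examined (Fos, Egr2 and Hspa1a), so those shares are not reported. Naming by most markers left 35 suprabasal cells in the labelled-null imiquimod library, and the 4 suprabasal ratios that use it were not run. That naming and the joint names were chosen after seeing the data. Depth limits the rare members, Egr2, Egr3 and Dusp6.

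In what follows the control and labelled-null pairs set imiquimod against untreated, and the untreated and imiquimod pairs set labelled null against control. With edgeR TMM factors, AP-1 and Egr log2 ratios were basal -0.32 (control pair), -1.10 (labelled-null pair), -0.030 (untreated pair) and -0.81 (imiquimod pair), suprabasal -0.92 (control pair), 0.059 (labelled-null pair), -0.36 (untreated pair) and 0.62 (imiquimod pair), fibroblast -0.98 (control pair), -0.59 (labelled-null pair), -0.13 (untreated pair) and 0.27 (imiquimod pair). With edgeR TMM factors, heat shock log2 ratios were basal -0.26 (control pair), 0.43 (labelled-null pair), -0.21 (untreated pair) and 0.48 (imiquimod pair), suprabasal -0.16 (control pair), 0.47 (labelled-null pair), -0.26 (untreated pair) and 0.36 (imiquimod pair), fibroblast -0.55 (control pair), 0.17 (labelled-null pair), -0.16 (untreated pair) and 0.56 (imiquimod pair). With edgeR TMM factors, member counts were 5 lower (basal, control pair), 3 higher (suprabasal, control pair), 16 higher (fibroblast, imiquimod pair) and 1 lower (fibroblast, imiquimod pair). With each library clustered on its own, AP-1 and Egr log2 ratios were basal -1.18 (control pair), -0.76 (labelled-null pair) and 0.36 (imiquimod pair), suprabasal -1.36 (control pair) and 0.88 (imiquimod pair), fibroblast -0.80 (labelled-null pair). With each library clustered on its own, heat shock log2 ratios were basal -0.62 (control pair), 0.34 (labelled-null pair) and 0.71 (imiquimod pair), suprabasal 0.33 (imiquimod pair), fibroblast -0.46 (control pair), -0.040 (labelled-null pair) and -0.10 (untreated pair). With each library clustered on its own, member counts were 1 higher (basal, control pair), 21 lower (basal, control pair), 4 higher (basal, labelled-null pair), 12 lower (basal, labelled-null pair), 2 higher (basal, untreated pair), 0 lower (basal, untreated pair), 12 higher (basal, imiquimod pair), 1 lower (basal, imiquimod pair), 2 higher (fibroblast, control pair) and 1 lower (fibroblast, untreated pair). With cells of at least 4000 UMIs, AP-1 and Egr log2 ratios were basal -0.58 (control pair), -1.47 (labelled-null pair), -0.14 (untreated pair) and -1.04 (imiquimod pair), suprabasal -0.15 (labelled-null pair), fibroblast -0.87 (control pair), -0.79 (labelled-null pair) and -0.023 (imiquimod pair). With cells of at least 4000 UMIs, heat shock log2 ratios were basal -0.52 (control pair), 0.15 (labelled-null pair), -0.31 (untreated pair) and 0.35 (imiquimod pair), fibroblast -0.43 (control pair), -0.034 (labelled-null pair) and 0.26 (imiquimod pair). With cells of at least 4000 UMIs, member counts were 2 lower (basal, untreated pair), 2 higher (suprabasal, control pair) and 1 higher (fibroblast, control pair). With each cell weighted equally, AP-1 and Egr log2 ratios were basal -1.11 (labelled-null pair) and -0.64 (imiquimod pair), suprabasal -1.04 (control pair), -0.036 (labelled-null pair), -0.34 (untreated pair) and 0.66 (imiquimod pair), fibroblast -1.02 (control pair), -0.89 (labelled-null pair), -0.090 (untreated pair) and 0.040 (imiquimod pair). With each cell weighted equally, heat shock log2 ratios were basal -0.40 (control pair), -0.18 (untreated pair) and 0.45 (imiquimod pair), suprabasal 0.26 (labelled-null pair), fibroblast -0.58 (control pair), -0.11 (labelled-null pair) and 0.36 (imiquimod pair). With clusters named by the type with most markers, AP-1 and Egr log2 ratios were basal -0.68 (control pair), -1.27 (labelled-null pair), -0.15 (untreated pair) and -0.74 (imiquimod pair), suprabasal -1.01 (control pair), fibroblast -0.90 (control pair), -0.99 (labelled-null pair) and -0.19 (imiquimod pair). With clusters named by the type with most markers, heat shock log2 ratios were basal -0.50 (control pair), 0.076 (labelled-null pair) and 0.33 (imiquimod pair), suprabasal -0.27 (control pair), fibroblast -0.42 (control pair), -0.096 (labelled-null pair) and 0.19 (imiquimod pair). With at least 500 genes and at most 5% mitochondrial UMIs, AP-1 and Egr log2 ratios were basal -0.60 (control pair), -1.46 (labelled-null pair) and -0.001 (untreated pair), suprabasal -0.86 (control pair), -0.28 (labelled-null pair) and 0.20 (imiquimod pair), fibroblast -0.93 (control pair). With at least 500 genes and at most 5% mitochondrial UMIs, heat shock log2 ratios were basal -0.53 (control pair) and 0.47 (imiquimod pair), suprabasal -0.26 (control pair), 0.15 (labelled-null pair) and 0.11 (imiquimod pair). With the members allowed among the variable genes, AP-1 and Egr log2 ratios were basal -0.68 (control pair), -1.55 (labelled-null pair), -0.18 (untreated pair) and -1.05 (imiquimod pair), suprabasal -0.22 (control pair), 1.01 (labelled-null pair), 0.022 (untreated pair) and 1.25 (imiquimod pair). With the members allowed among the variable genes, heat shock log2 ratios were basal 0.14 (labelled-null pair) and 0.35 (imiquimod pair), suprabasal 0.48 (labelled-null pair) and 0.49 (imiquimod pair). With joint names kept for clusters of mostly 1 library, AP-1 and Egr log2 ratios were basal -0.61 (control pair), -0.53 (labelled-null pair) and 0.020 (imiquimod pair), suprabasal -0.96 (control pair), -0.28 (labelled-null pair) and 0.28 (imiquimod pair). With joint names kept for clusters of mostly 1 library, heat shock log2 ratios were basal -0.50 (control pair), 0.48 (labelled-null pair) and 0.74 (imiquimod pair), suprabasal -0.27 (control pair), 0.47 (labelled-null pair) and 0.42 (imiquimod pair). With called doublets kept, AP-1 and Egr log2 ratios were basal -0.54 (control pair) and -0.84 (imiquimod pair), suprabasal 0.016 (labelled-null pair) and 0.69 (imiquimod pair), fibroblast -0.97 (control pair), -0.81 (labelled-null pair) and 0.059 (imiquimod pair). With called doublets kept, heat shock log2 ratios were basal 0.14 (labelled-null pair) and 0.38 (imiquimod pair), suprabasal 0.33 (imiquimod pair).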
